A study of Mus musculus with 9 samples.

Results

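The seminal vesicle, whose epithelium secretes a large share of the proteins of semen, had its RNA sequenced in mice at 3, 13 and 21 months of age. The question taken up here is which transcripts stood highest or lowest at the middle age. For each gene the mean at 13 months was set against the average of the means at 3 and 21 months on the log2 scale, and this difference is called the midlife contrast. It used all 9 libraries in 1 fit and every gene that passed a filter on low counts, which was 16067 of the 53379 genes in the table.

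Each age had 3 libraries of total RNA from whole seminal vesicle, extracted with TRIzol and described as sequencing of long noncoding RNA. The labels give no strain, genotype or treatment for any group, and they do not say whether the replicates came from separate animals, so p-values measure the spread between these libraries only. The total count per library ranged from 16536160 to 24791943. Transcripts of the seminal vesicle's secreted proteins took 58.4% to 64.2% of the counts in the 6 libraries of 3 and 13 months, but 22.8%, 46.0% and 57.9% in 21-month replicates 1, 2 and 3. The 15 prostate markers in the table summed to 16860 CPM (counts per 1e+06 of a library size scaled by TMM, the trimmed mean of M-values) in 21-month replicate 1 and to between 9.26 and 17.4 CPM in the other 8 libraries. The 14 fat cell markers summed to 394.5 CPM in 21-month replicate 1 and 3150 CPM in replicate 2, against 46.1 to 91.2 CPM in the other 7. Every midlife contrast leans on these 21-month libraries for one of its arms, so the main lists are also given with replicate 3 standing alone for 21 months, in a fit that takes its spread from the libraries of 3 and 13 months.

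A gene can have a large midlife contrast without turning at 13 months. If it differs at 3 months and is level from 13 to 21 months, the contrast still takes up part of that step. A peak or a trough needs the 13-month value to lie beyond both other ages, so each gene is described by the contrast, by 13 against 3 months and by 13 against 21 months. The last 2 comparisons share the 13-month libraries and are not independent of each other. In a gland whose epithelium renews slowly, transcripts of the cell division machinery are carried by the few cells that are cycling, and collagens and related matrix proteins come mainly from stromal fibroblasts. In RNA from whole tissue, fewer cells of a type and less RNA per cell cannot be told apart.

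No gene passed the midlife contrast after adjustment over all genes. The edgeR quasi-likelihood test called 0 genes higher (0%) and 0 genes lower (0%) at 13 months, with a smallest Benjamini-Hochberg adjusted p of 0.0773. At an unadjusted p under 0.05 there were 1070 genes (6.66%), 460 higher (2.86%) and 610 lower (3.8%). On the same counts DESeq2 called 22 genes higher and 64 lower, and limma-voom called 0, with 969 genes at an unadjusted p under 0.05. Genes that differed from both other ages in the same direction were tested by the larger of the pair of p-values. Here edgeR called 0 (0%), limma-voom called 0 and DESeq2 called 3, which were Cpeb2, Slc6a14 and Pck1. Pck1 had 0 CPM in every 13-month library, in 3-month replicate 1 and in 21-month replicate 3, so its ages overlapped. In edgeR 77 genes (0.479%) had an unadjusted p under 0.05 on both sides as a peak and 117 (0.728%) as a trough. The genes below are therefore given by their values, and none is said to have risen or fallen in the midlife contrast.

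More genes were called on the early side of 13 months than on the late side, and the difference between the sides was not tested. At 13 against 3 months 66 genes fell (0.411%) and 7 rose (0.0436%). At 13 against 21 months 1 gene passed lower at 13 months (0.00622%) and 0 passed higher (0%). All 3 libraries of 13 months lay above the other 6 for 228 genes (1.42%) and below them for 213 (1.33%).

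**Figure D1:**
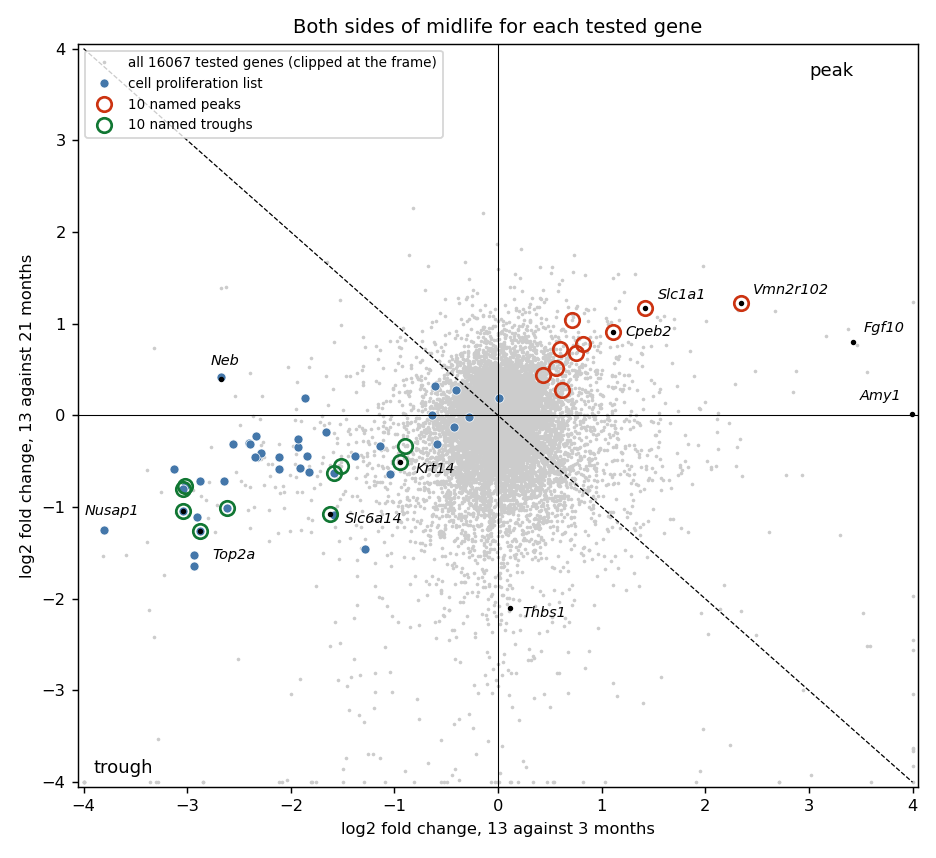
Each point is 1 of 16067 tested genes, with the log2 fold change of 13 against 3 months on the horizontal axis and of 13 against 21 months on the vertical axis. The 3-month libraries and the 21-month libraries appear on 1 axis each, and the 13-month libraries on both. Peaks lie at the upper right and troughs at the lower left, and the dashed line marks a midlife contrast of 0. Points of the cell proliferation list (blue) spread far to the left and a short way below the horizontal axis, with Thbs1 straight below the centre and Amy1 straight to its right.

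The troughs with the smallest p-values were mostly genes of cell division. Nusap1, which encodes a protein that binds spindle microtubules, had the smallest p of the 10 troughs named by rule. It stood at 4.89, 5.25 and 4.07 CPM at 3 months, at 0.650, 0.678 and 0.403 CPM at 13 months, and at 1.37, 1.12 and 1.04 CPM at 21 months. The 3 ages did not overlap, and the 21-month libraries stood much closer to 13 than to 3 months. Its midlife contrast was −2.04 ± 0.25 (log2, SE), with an edgeR adjusted p of 0.0773. It fell by 3.04 on the log2 scale from 3 to 13 months (edgeR adjusted p = 0.0055), and its 13-month level was 1.04 log2 units under that of 21 months, a difference of −1.04 ± 0.27 (adjusted p = 0.197). Nusap1 shares 172 exon bases with Oip5 on the opposite strand, and the strand setting of the counting is not given.

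Mki67, which encodes the Ki-67 antigen of cycling cells, followed the same order. Its levels were 54.3, 55.2 and 44.1 CPM at 3 months, 8.34, 7.77 and 2.95 CPM at 13 months, and 13.0, 10.4 and 8.85 CPM at 21 months. The lowest 21-month library was close to the highest 13-month library, and 13-month replicate 3 was the lowest of all 9. The midlife contrast of Mki67 was −1.90 ± 0.30 (adjusted p = 0.18), made of −3.02 ± 0.33 against 3 months (adjusted p = 0.00914) and −0.77 ± 0.32 against 21 months (adjusted p = 0.297). Top2a, the topoisomerase that untangles DNA in dividing cells, stood at 33.7, 25.8 and 20.5 CPM, then 4.43, 4.22 and 2.33 CPM, then 14.7, 6.49 and 4.90 CPM. The highest of its 21-month values came from replicate 1, the library with prostate transcripts, whose part in the value was not tested. The other named troughs of this kind were Aspm (−1.81 ± 0.26), which acts at spindle poles, Cenpf (−1.92 ± 0.32) at the kinetochore, Bub1b (−1.10 ± 0.21) in the spindle checkpoint, Kif20b (−1.03 ± 0.20), a kinesin of cell division, and Smc2 (−0.61 ± 0.12), a condensin subunit. Each of these 5 fell from 3 to 13 months, with edgeR adjusted p-values from 0.00914 to 0.0235, and none passed against 21 months, with adjusted p-values from 0.206 to 0.307.

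**Figure D2:**
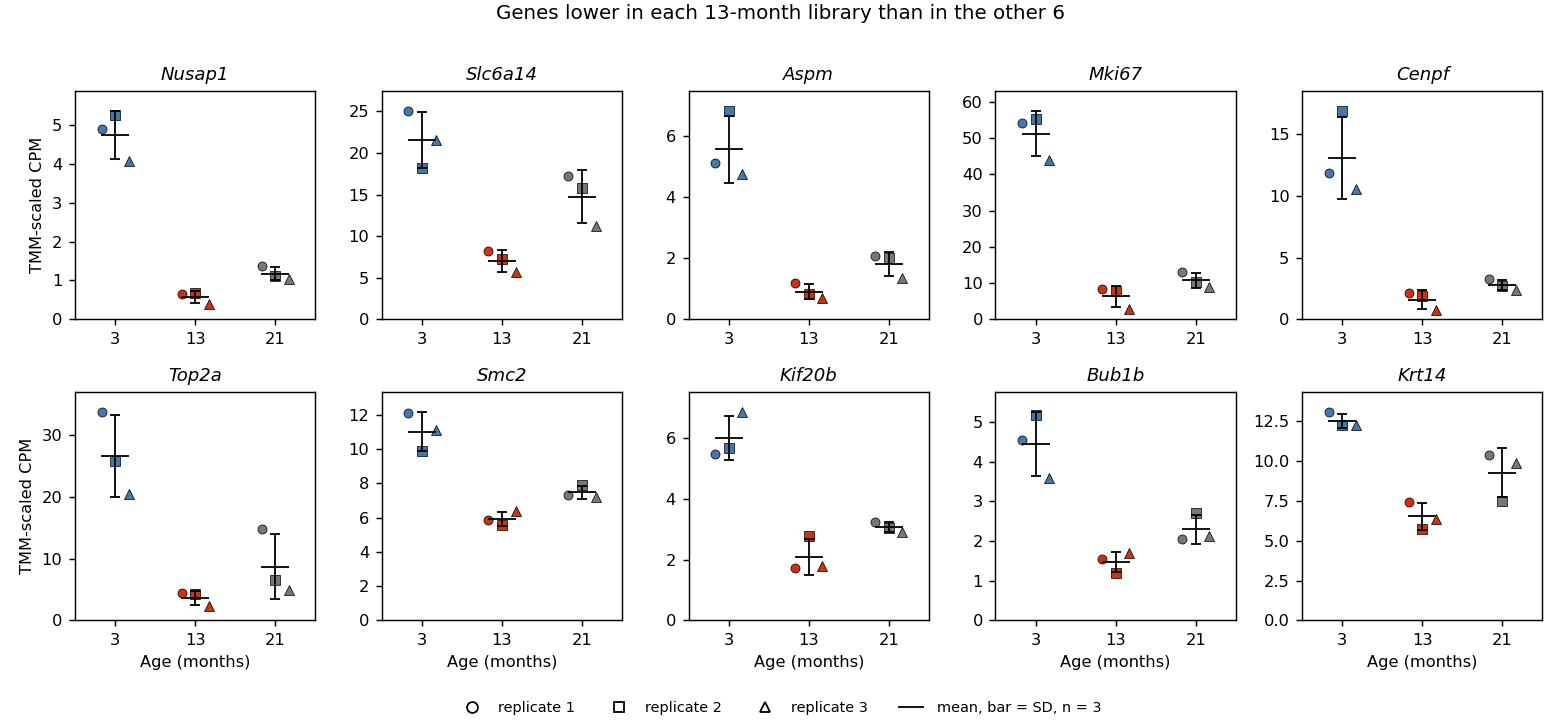
TMM-scaled CPM of the 10 named troughs, 1 panel per gene with its own axis from 0, by age in months. Each symbol is 1 library, circle, square and triangle for replicates 1, 2 and 3, and the line and bar are the mean and SD of the 3 libraries of an age. In every panel the 13-month libraries are the lowest 3, as the naming rule requires. For Nusap1, Mki67, Aspm and Cenpf the 21-month libraries lie just above them and far under those of 3 months.

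The whole list of 42 cell proliferation genes was tested, and it leaned the same way. In the midlife contrast 0 of the 42 were called, while 34 were lower at an unadjusted p under 0.05, against 3.8% of all genes, and 41 had a negative contrast. Their median contrast was −1.31, against 0.00 for all tested genes. All 3 libraries of 13 months lay below those of 3 months for 39 of the 42 (9.33% of all genes), below those of 21 months for 11 (7.99%) and below the other 6 for 11 (1.33%). At 13 against 3 months 22 of the 42 fell (0.411%), where the list had a median of −2.12. Its median against 21 months was −0.45. Summed over the list, the levels were 305.3, 289.3 and 248.1 CPM at 3 months, 100.6, 98.8 and 84.0 CPM at 13 months, and 131.2, 121.0 and 100.1 CPM at 21 months. The sums of 13 and 21 months overlapped, since 21-month replicate 3 lay under 13-month replicate 1. With replicate 3 standing alone for 21 months, the median contrast was −1.09 and the median at 13 against 21 months was −0.18. Then 29 of the 42 had their lowest mean at 13 months, against 36 with all libraries. Of all genes 25.2% had their lowest mean at 13 months with all libraries. Only 27 of the 42 had at least 10 counts in all 9 libraries. In a fit limited to such genes, 26 of the 27 had a negative contrast and 23 had their lowest mean at 13 months.

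The contrast varied widely over the members of the list. Ccnb1, which encodes the mitotic cyclin B1, stood at 1.96, 3.19 and 1.59 CPM at 3 months, 0.237, 0.104 and 0.134 CPM at 13 months and 0.409, 0.396 and 0.318 CPM at 21 months. These are few reads, since 3 counts are worth 0.134 to 0.177 CPM in the 13-month libraries. The contrast of Ccnb1 was −2.52 ± 0.40 (adjusted p = 0.18), and that of the mitotic kinase Plk1 was −2.29 ± 0.46 (adjusted p = 0.213). Pcna, the sliding clamp of DNA replication, stood at 16.1, 12.2 and 11.3 CPM, then 10.4, 10.9 and 11.4 CPM, then 11.6, 11.4 and 10.1 CPM, and its 3 ages overlapped, with a contrast of −0.15 ± 0.13. Mcm4, a subunit of the replicative helicase, had a contrast of 0.10 ± 0.16, the only positive one of the 42, which was −0.15 under library totals alone and −0.022 without 13-month replicate 3. Plk1, Pcna and Mcm4 were chosen after their values were seen. Nek2, Iqgap3 and Ckap2, also chosen after their values were seen, are further genes of cell division and had contrasts of −1.99 ± 0.23, −2.09 ± 0.27 and −2.04 ± 0.28, with adjusted p-values of 0.0773, 0.0874 and 0.0909. Nek2, a kinase of the centrosome, had the smallest p of all tested genes, at 4.20, 4.47 and 3.93 CPM, then 0.473, 0.313 and 0.403 CPM, then 0.631, 0.577 and 0.590 CPM. It differed by −3.39 ± 0.24 against 3 months (adjusted p = 0.0016) and by −0.60 ± 0.26 against 21 months (adjusted p = 0.4). Iqgap3 and Ckap2 differed by −3.10 and −2.99 against 3 months, and by −1.07 and −1.09 against 21 months (adjusted p = 0.21 for both). The 13-month levels of Nek2, Iqgap3 and Ckap2 are few reads too. Their average log2 CPM was 0.78, 0.46 and 0.64, under the 1 that the naming rule requires.

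Genes of mitosis share short promoter motifs, and the sequences are shown because most of the named troughs, which were chosen by smallest p, are of this kind. The cell cycle homology region, or CHR, is bound by the DREAM and B-MYB complexes in a form spelled TTTGAA or, in other genes, in one spelled TTTAAA. The CCAAT box is bound by NF-Y. The windows below are RefSeq promoters on GRCm38.p6, from 250 bases before to 50 after the start, written from 5′ to 3′ along the gene, with matches to any of these 3 motifs on either strand in capitals.
Mki67, chr7:135716330-135716629, minus strand: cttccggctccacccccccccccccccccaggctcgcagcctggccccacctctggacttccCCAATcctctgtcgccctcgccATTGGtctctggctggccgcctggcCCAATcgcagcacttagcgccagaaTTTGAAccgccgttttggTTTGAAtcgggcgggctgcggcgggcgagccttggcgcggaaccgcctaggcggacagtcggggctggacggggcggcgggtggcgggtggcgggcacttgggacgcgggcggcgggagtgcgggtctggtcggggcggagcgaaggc
Aspm, chr1:139454523-139454822, plus strand: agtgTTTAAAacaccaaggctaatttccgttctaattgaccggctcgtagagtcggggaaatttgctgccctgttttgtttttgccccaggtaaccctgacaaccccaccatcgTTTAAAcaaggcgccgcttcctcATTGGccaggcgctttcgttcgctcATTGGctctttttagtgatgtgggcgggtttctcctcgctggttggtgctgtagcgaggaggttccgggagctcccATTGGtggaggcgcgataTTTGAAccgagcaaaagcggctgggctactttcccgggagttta
Cenpf, chr1:189688037-189688336, minus strand: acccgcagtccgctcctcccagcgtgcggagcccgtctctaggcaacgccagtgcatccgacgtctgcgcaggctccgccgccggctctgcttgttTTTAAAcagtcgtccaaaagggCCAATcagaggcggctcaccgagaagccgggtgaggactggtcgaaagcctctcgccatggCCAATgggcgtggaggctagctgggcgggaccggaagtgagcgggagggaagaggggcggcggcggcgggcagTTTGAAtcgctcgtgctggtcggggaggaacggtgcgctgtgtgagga
Ccnb1, chr13:100786437-100786736, minus strand: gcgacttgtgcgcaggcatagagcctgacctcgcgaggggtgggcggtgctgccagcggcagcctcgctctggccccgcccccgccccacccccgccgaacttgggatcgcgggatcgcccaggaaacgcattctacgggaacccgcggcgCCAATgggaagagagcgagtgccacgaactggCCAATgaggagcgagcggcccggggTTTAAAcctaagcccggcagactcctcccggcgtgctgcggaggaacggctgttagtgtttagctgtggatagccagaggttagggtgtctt
Nusap1, chr2:119618048-119618347, plus strand: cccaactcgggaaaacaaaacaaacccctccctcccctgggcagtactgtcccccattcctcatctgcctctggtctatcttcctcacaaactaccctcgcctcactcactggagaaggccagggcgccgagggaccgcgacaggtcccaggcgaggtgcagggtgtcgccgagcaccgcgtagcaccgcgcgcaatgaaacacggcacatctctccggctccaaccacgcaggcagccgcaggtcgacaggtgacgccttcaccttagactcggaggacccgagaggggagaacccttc
The Mki67 window held 2 matches to TTTGAA and 3 to CCAAT. Aspm had 1 to TTTGAA, 2 to TTTAAA and 3 to CCAAT, Cenpf had 1, 1 and 2, and Ccnb1 had 0, 1 and 2. The Nusap1 window held none of the 3 motifs, and no match in the 5 windows shared bases with a match to another motif. A promoter was found for 37 of the 42 proliferation genes, and 78.4% of these held a CHR form, against 19.6% of the 10864 tested genes with a promoter. CCAAT was in 81.1% of the 37 and in 38.4% of the 10864. The list was drawn up as cell proliferation genes, so these shares describe the list and not its midlife values. Of the 10 named troughs 70% held a CHR form and 70% held CCAAT. Ccnb1 is shown as a member of the list and is not among these 10. A match is a run of letters and was not shown to be a bound site.

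A pair of named troughs was not of the cell cycle. Slc6a14, on chromosome X from 21714896 to 21742355 (GRCm38), encodes a transporter that brings neutral and basic amino acids into epithelial cells. It stood at 25.0, 18.2 and 21.5 CPM at 3 months, 8.22, 7.25 and 5.64 CPM at 13 months, and 17.3, 15.8 and 11.2 CPM at 21 months. The ages did not overlap, and the 21-month libraries had the middle place, with replicate 3 nearest to 13 months. Its contrast was −1.35 ± 0.19 (edgeR adjusted p = 0.0909), with −1.62 ± 0.21 against 3 months (adjusted p = 0.0142) and −1.07 ± 0.20 against 21 months (adjusted p = 0.197), the most even of the 10 troughs. DESeq2 gave it an adjusted p of 1.76e-07. Krt14, a keratin of basal epithelial cells, stood at 13.1, 12.3 and 12.3 CPM, then 7.45, 5.74 and 6.40 CPM, then 10.4, 7.53 and 9.90 CPM. The lowest 21-month library, replicate 2, was just above the highest of 13 months. Its contrast was −0.73 ± 0.14 (adjusted p = 0.204), and it fell from 3 to 13 months by 0.94 (edgeR adjusted p = 0.04). Of the 9 basal epithelial markers 6 had their lowest mean at 13 months, against 25.2% of all genes, with a median contrast of −0.28. The list's median was −0.57 against 3 months and −0.22 against 21 months. All 13-month libraries lay below those of 3 months for 6 of the 9 (9.33% of all genes) and below those of 21 months for 1 (7.99%). The summed levels were 328.8 to 356.4 CPM at 3 months, 245.2 to 350 CPM at 13 months and 345.2 to 516 CPM at 21 months, so 13 months overlapped both.

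Cpeb2 had the smallest p of the peaks. It encodes a protein that binds cytoplasmic polyadenylation elements in mRNA and regulates translation, on chromosome 5 from 43233170 to 43289724 (GRCm38). The libraries of 3 months held 27.0, 25.8 and 24.8 CPM, those of 13 months 46.1, 52.9 and 68.7 CPM, and those of 21 months 26.2, 30.8 and 32.2 CPM. All 13-month libraries stood above the other 6, as the naming rule requires, and the libraries of 3 and 21 months overlapped. The contrast was 1.01 ± 0.13 (edgeR adjusted p = 0.0773), with a rise of 1.11 ± 0.15 from 3 to 13 months (edgeR adjusted p = 0.0194) and a 13-month level 0.91 ± 0.15 log2 units above 21 months (adjusted p = 0.197). DESeq2 gave it an adjusted p of 1.76e-07. Over 20 alternatives its contrast lay between 0.79 and 1.14, with adjusted p-values from 1.76e-07 to 0.293.

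The other 9 named peaks did not pass either comparison in edgeR. Slc1a1, the neuronal and epithelial glutamate and aspartate transporter, stood at 16.7, 20.2 and 15 CPM, then 35.1, 50.4 and 53.4 CPM, then 12.7, 21.8 and 27.3 CPM. Its contrast was 1.30 ± 0.22 (adjusted p = 0.183), with 1.42 against 3 months and 1.17 against 21 months. The 13-month libraries did not overlap the others, as the naming rule requires. Slc1a1 shares 2631 exon bases with 4430402I18Rik on the opposite strand. Vmn2r102, a member of the vomeronasal receptor family, had 3.28, 3.55 and 3.04 CPM, then 17.7, 13.8 and 18.6 CPM, then 2.79, 7.42 and 11.3 CPM. The 13-month libraries were the highest, again by the rule, and the 21-month libraries spread widely under them. Its contrast of 1.78 ± 0.32 was the largest of the 10 peaks, but it belongs to a large family of similar genes, and how reads that map to several places were counted is not given. It was called when 21-month replicate 1 was left out (edgeR adjusted p = 0.043). DESeq2 also called it, as did edgeR without a low-count filter and without 21-month replicate 3. With replicate 3 standing alone for 21 months, its 13-month level was 2.34 log2 units above 3 months and 0.56 above 21 months.

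Signalling genes were among the remaining peaks. Dusp4, a phosphatase that inactivates MAP kinases, stood at 15.6, 16.5 and 15.3 CPM, then 24.4, 30.1 and 28.9 CPM, then 13.7, 14.2 and 20.9 CPM, with a contrast of 0.80 ± 0.14 (adjusted p = 0.183). Tiparp, a target of the aryl hydrocarbon receptor that represses it, had a contrast of 0.72 ± 0.14, and the kinase gene Pim3 had 0.45 ± 0.10. Wdr91, which acts in endosome maturation, stood at 38.4, 42.6 and 33.3 CPM, then 63.4, 56.9 and 66.6 CPM, then 21.5, 27.9 and 41.7 CPM, and its contrast was 0.87 ± 0.18. Wdr25 (0.66 ± 0.16), Osbpl7 (0.44 ± 0.10), which encodes an oxysterol-binding protein relative, and the mitochondrial carrier gene Slc25a29 (0.54 ± 0.13) completed the 10, with adjusted p-values of 0.339. Over all genes with 13-month libraries outside the other 6 the median contrast was 0.42 for the 228 above and −0.71 for the 213 below. The signs follow from the choice of genes. The 213 were also less abundant, with a median average log2 CPM of 1.62, against 3.95 for the 228 and 3.03 for all tested genes.

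**Figure D3:**
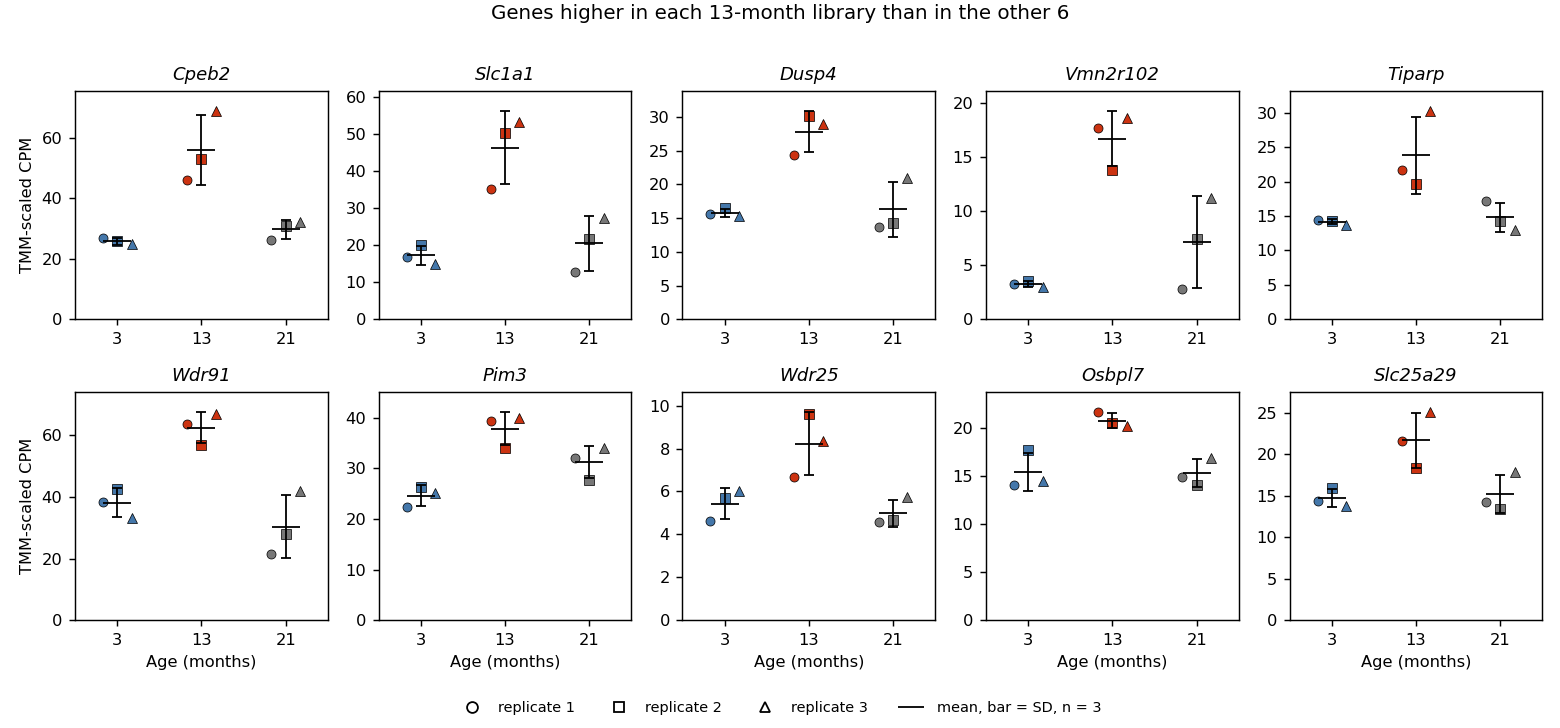
TMM-scaled CPM of the 10 named peaks, 1 panel per gene with its own axis from 0, by age in months. Each symbol is 1 library, circle, square and triangle for replicates 1, 2 and 3, and the line and bar are the mean and SD of the 3 libraries of an age. The 13-month libraries are the highest 3 in every panel, as the naming rule requires. Panels in which 21-month replicate 3 is the highest of its age include Cpeb2, Slc1a1, Vmn2r102, Dusp4, Osbpl7 and Wdr91.

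The genes outside the other ages also carried the order of the 21-month libraries. Among the 228 genes above, 21-month replicate 1 was lowest and replicate 3 highest of its age for 95 (41.7%), against 18.6% of all tested genes. That is the order of the secretory share of counts in these libraries. Among the 213 genes below, replicate 1 was highest and replicate 3 lowest for 65 (30.5%), against 15% of all tested genes. The part of these libraries in the peaks and troughs was not tested. Long noncoding RNA genes made up 17.5% of the genes above, 6.57% of those below and 11.4% of all tested genes.

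Most collagens and fibroblast markers had their lowest mean at 13 months, with 21-month replicate 2 high for many of them. Of 22 collagen genes 21 had a negative contrast and 16 had their lowest mean at 13 months, against 25.2% of all genes. The collagen median contrast was −0.50, with −0.60 against 3 months and −0.47 against 21 months. No collagen gene was called, and 9 were lower at an unadjusted p under 0.05, against 3.8% of all genes. Col3a1, the chain of type III collagen, stood at 258.8, 197.5 and 196.9 CPM at 3 months, 45.6, 73.1 and 79.5 CPM at 13 months, and 77.3, 182.2 and 74.6 CPM at 21 months. The 3-month libraries were the highest, and 21-month replicate 2 stood far above the other libraries of its age, which overlapped those of 13 months. Its contrast was −1.24 ± 0.32 (adjusted p = 0.407). Fbn1, the gene of the microfibril protein fibrillin-1, stood at 68.3, 67.6 and 44.0 CPM, then 17.2, 31.7 and 31.3 CPM, then 38.3, 104.1 and 35.1 CPM. Its 13-month libraries were below the other 6, and the contrast was −1.16 ± 0.38 (adjusted p = 0.58). Col7a1, the anchoring fibril collagen, was the exception with 0.62 ± 0.23 (adjusted p = 0.649), and it was picked after its value was seen. Its 21-month replicate 3 overlapped with 13 months.

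The fibroblast markers include the collagen genes Col1a1, Col1a2 and Col3a1, so they are not separate from the collagens. All 14 fibroblast markers had a negative contrast, with a median of −0.56, and 13 had their lowest mean at 13 months, against 25.2% of all genes. Their summed levels were 1040, 1101 and 1055 CPM at 3 months, 531.0, 816.9 and 860.6 CPM at 13 months and 847.4, 1825 and 807.8 CPM at 21 months. The sums of 13 and 21 months overlapped, and 21-month replicate 2, the library with the most fat cell transcripts, was by far the highest. With 21-month replicate 3 alone the median was −0.39, and 9 of the 14 had their lowest mean at 13 months. The collagen median was then −0.36, with 15 of 22 lowest at 13 months, and the collagen median at 13 against 21 months was −0.28. Without 21-month replicate 2 the fibroblast median was −0.36, with 13 of the 14 negative. The collagen median was then −0.31, with −0.15 at 13 against 21 months and 16 of 22 lowest at 13 months. The insulin-like growth factor axis was mixed, with 5 of its 15 tested genes positive and a list median of −0.23, which was −0.10 without 21-month replicate 2 and −0.36 without replicate 1. Igf1r, the gene of the receptor, had its highest mean at 13 months and a contrast of 0.44 ± 0.16 (adjusted p = 0.652). The binding protein gene Igfbp5 had a contrast of −0.62 ± 0.14 and Igfbp7 one of −0.55 ± 0.16. Igfbp5 stood at 120.1, 96.4 and 101.8 CPM, then 55.1, 63.9 and 59.9 CPM, then 85.3, 91.1 and 59.9 CPM, and 21-month replicate 3 lay within the range of 13 months.

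**Figure D4:**
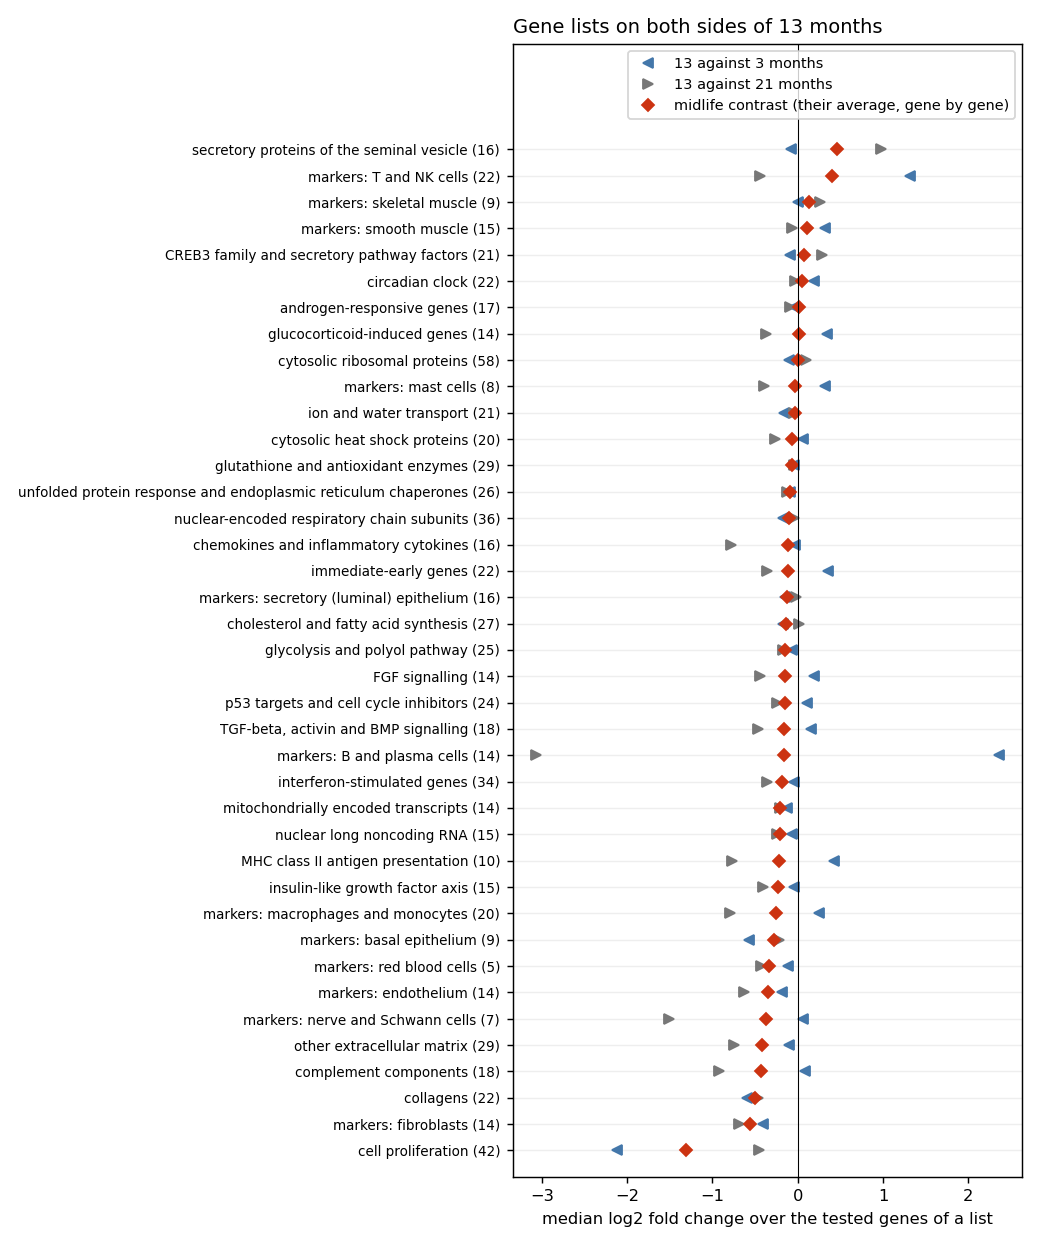
Median log2 fold change over the tested genes of each list with at least 4 tested genes, number tested in brackets, for 13 against 3 months (left-pointing), 13 against 21 months (right-pointing) and the midlife contrast (diamond). The fat cell list, with a median contrast of −4.06, is not drawn. The cell proliferation list lies far to the left of the others at 13 against 3 months, the T and NK cell and the B and plasma cell lists lie right of 0 at 13 against 3 months and left of 0 at 13 against 21 months, and most other medians lie near 0.

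For several genes with large midlife contrasts, the 13-month libraries overlapped those of another age. Amy1, the salivary-type amylase gene, rose from 3.40, 4.75 and 4.62 CPM at 3 months to 93.3, 85.6 and 24.2 CPM at 13 months (edgeR adjusted p = 0.0126). It stood at 48.0, 82.6 and 70.0 CPM at 21 months. The 13- and 21-month libraries overlapped, with a difference of 0.02 ± 0.41, so that the contrast of 2.0 ± 0.36 (adjusted p = 0.183) came from the 3-month arm. Amy1 shares 1128 exon bases with Rnpc3 on the same strand. Fgf10, a growth factor of stromal cells that acts on epithelium, stood at 4.09, 3.97 and 2.55 CPM, then 41.5, 52.1 and 21.0 CPM, then 9.62, 18.5 and 37.6 CPM. It rose from 3 to 13 months by 3.42 ± 0.53 (edgeR adjusted p = 0.0259), and its 13-month level was 0.80 ± 0.46 above that of 21 months (adjusted p = 0.423), with overlapping libraries. Its antisense neighbour Gm16263, picked after its values were seen, had a contrast of 2.16 ± 0.35 (adjusted p = 0.18) and shares 123 exon bases with Fgf10 on the opposite strand, so that their reads may not be separate.

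Thbs1 changed late. This gene of the matrix protein thrombospondin-1 stood at 8.35, 13.1 and 12.3 CPM at 3 months, 10.6, 10.6 and 15 CPM at 13 months, and 52.6, 55.2 and 48.1 CPM at 21 months. It was the 1 gene called at 13 against 21 months (−2.10 ± 0.19, edgeR adjusted p = 0.0159), and at 13 against 3 months it differed by 0.11 ± 0.19. Its midlife contrast of −0.99 ± 0.17 (adjusted p = 0.183) had the 13-month mean between the other ages. Neb, which encodes nebulin of muscle thin filaments, fell from 248.3, 179.0 and 204.2 CPM to 47.8, 28.6 and 22.7 CPM (edgeR adjusted p = 0.0142) and stood at 17.1, 21.2 and 36.8 CPM at 21 months, so its contrast of −1.14 ± 0.29 was not a trough. Creb3l1, which encodes a membrane-bound transcription factor of secretory cells, rose from 0.518, 0.710 and 0.552 CPM to 1.95, 2.30 and 1.84 CPM (edgeR adjusted p = 0.0207) and stood at 3.57, 2.78 and 3.04 CPM at 21 months, a continued order with a small contrast of 0.57 ± 0.19. Il7r, the interleukin-7 receptor of lymphocytes, also rose from 3 to 13 months (edgeR adjusted p = 0.044) and had its highest mean at 21 months.

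**Figure D5:**
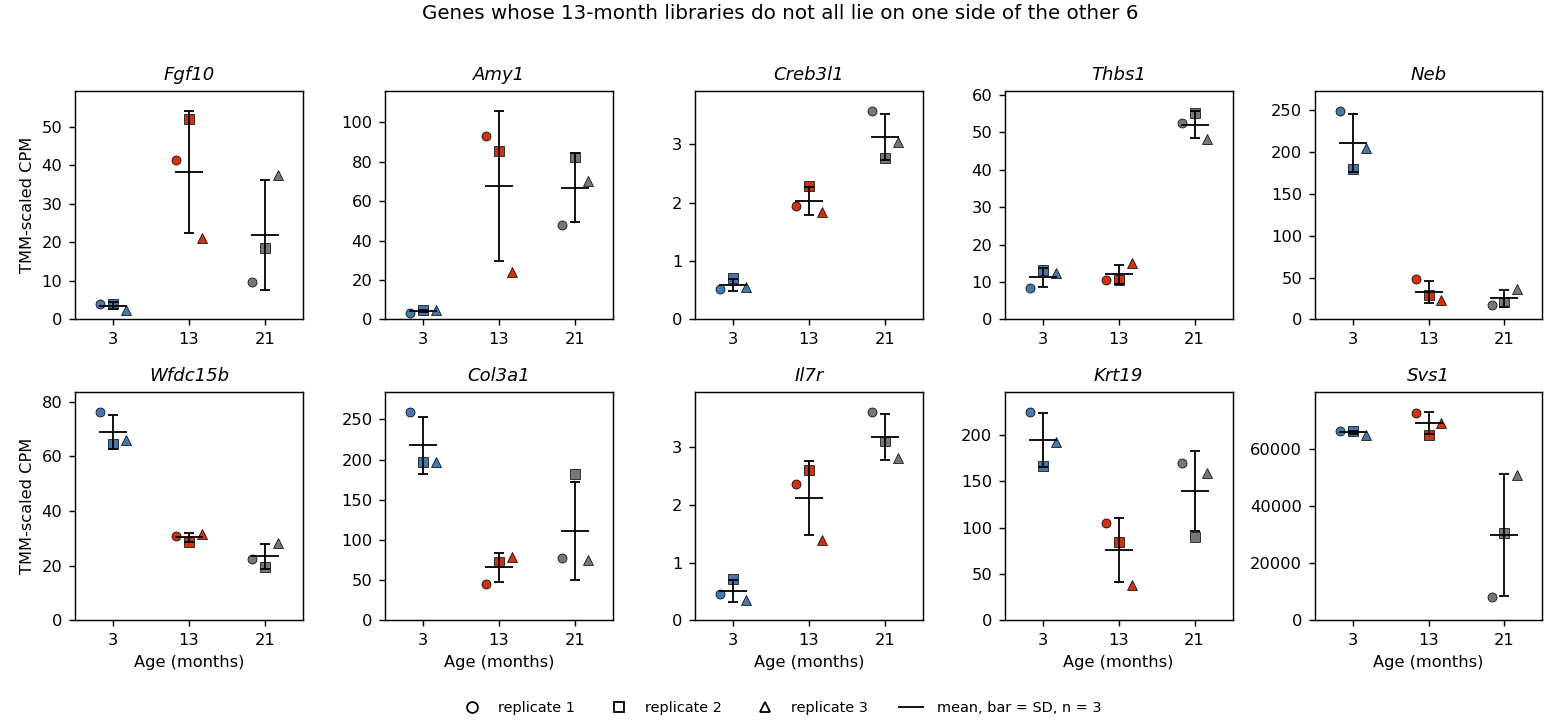
TMM-scaled CPM of 10 genes whose 13-month libraries do not all lie above or all below the other 6, 1 panel per gene with its own axis from 0, by age in months. Each symbol is 1 library, circle, square and triangle for replicates 1, 2 and 3, and the line and bar are the mean and SD of the 3 libraries of an age. Amy1 is low only at 3 months, Thbs1 is high only at 21 months, Neb and Wfdc15b are high only at 3 months, and Svs1 spreads from 8321 to 50860 CPM over the 21-month libraries.

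The contrast of the secreted proteins of the gland varied with the 21-month libraries used. Of 16 tested genes 15 had a positive contrast, with a median of 0.46, and none was called. The list's median was −0.08 at 13 against 3 months, while against 21 months it was 0.97. All 13-month libraries lay above those of 21 months for 8 of the 16 (8.25% of all genes). Svs1, a seminal vesicle secretory protein gene, stood at 65980, 66010 and 64830 CPM at 3 months, 72540, 64870 and 68860 CPM at 13 months, and 8321, 30440 and 50860 CPM at 21 months. The 3- and 13-month libraries overlapped, and those of 21 months were lower by very different amounts. With 21-month replicate 3 alone the median contrast of the list was 0.06, and it was 0.25 without replicate 1 and 0.74 without replicate 3. Wfdc15b was the member with a negative contrast (−0.40 ± 0.13). It fell from 76.1, 64.6 and 66.1 CPM at 3 months to 31.0, 28.6 and 31.6 CPM at 13 months (edgeR adjusted p = 0.0126) and stood at 22.7, 19.4 and 28.5 CPM at 21 months.

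Lymphocyte marker lists had median fold changes above 0 at 13 against 3 months and below 0 at 13 against 21 months. The 22 tested T and NK cell markers had a median of 1.32 at 13 against 3 months. Against 21 months it was −0.44, and the median contrast was 0.40, or 0.60 with 21-month replicate 3 alone. All 13-month libraries lay above those of 3 months for 8 of the 22 (8.18% of all genes). Of these 22 genes 1 rose from 3 to 13 months, which was Il7r, against 0.0436% of all genes. The 14 tested B and plasma cell markers had medians of 2.36 and −3.07, and the median contrast over genes was −0.17. Without 21-month replicate 3 the median contrast was −0.64 over 20 tested genes, and it was −0.29 over 15 without replicate 2. The summed level of the B and plasma cell list was 226.7 to 284.0 CPM at 3 months and 255.3 to 339.7 CPM at 13 months, which overlapped. At 21 months it was 563.7 to 927.7 CPM. Gene by gene, all 13-month libraries lay above those of 3 months for 6 of the 14 tested (8.18% of all genes). They lay below those of 21 months for 10 of the 14 (7.99%). The 10 genes of MHC class II antigen presentation all had their 13-month mean between the other ages, against 48.9% of all genes, with medians of 0.42 and −0.77. The median contrast of these 10 genes was −0.22. Leaving out 21-month replicate 2 gave −0.13, and replicate 3 alone gave −0.06.

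Several other lists had medians close to that of all genes. The circadian clock list of 22 genes had a median contrast of 0.05, the 58 cytosolic ribosomal protein genes 0.01, the 17 androgen-responsive genes 0.01, and the 20 cytosolic heat shock genes −0.07. The unfolded protein response list of 26 genes had a median of −0.09, and the immediate-early list of 22 genes had −0.11. None of their members was called. Without 21-month replicate 1 the unfolded protein response median was 0.18, with 2 of 26 negative against 17 of 26 with all libraries, and with replicate 3 alone it was 0.09. The immediate-early median was 0.03 with replicate 3 alone. The heat shock median was then 0.07, and it was −0.16 without replicate 3. All 14 endothelial markers had a negative contrast, with a median of −0.35. Their medians were −0.18 against 3 months and −0.63 against 21 months, and 12 had their lowest mean at 13 months. The 29 genes of other extracellular matrix had a median contrast of −0.42, with −0.11 and −0.74 on these sides and 17 lowest at 13 months. The 18 complement genes had a median contrast of −0.43, with 0.08 against 3 months and −0.92 against 21 months. Of these 18, 12 had their 13-month mean between the other ages, against 48.9% of all genes, and 6 had their lowest mean there. The 20 macrophage and monocyte markers had a median contrast of −0.26, with 0.25 against 3 months and −0.79 against 21 months. Of these 20, 16 had their 13-month mean between the other ages and 3 had their lowest mean there. The median contrast was −0.13 for the 16 luminal epithelial markers and 0.11 for the 15 smooth muscle markers. No member of these lists was called in the midlife contrast. Without 21-month replicate 2 the median contrasts were −0.16 for endothelium, with 11 of 14 negative, −0.27 for other matrix and −0.26 for complement. They were then −0.11 for macrophages and 0.23 for smooth muscle. The smooth muscle median was 0.01 without 21-month replicate 1. The luminal median was −0.03 without replicate 3 and −0.24 with that replicate alone. The clock list had 8 genes with their highest and 3 with their lowest mean at 13 months, against 25.9% and 25.2% of all genes.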

How the data were processed

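Total RNA of mouse seminal vesicle was measured in 9 libraries, 3 each at 3, 13 and 21 months. The authors deposited raw read counts per Ensembl gene with no normalization, and HISAT2, featureCounts and GRCm38 (mm10) are named in the submitters' processing notes. Versions, annotation, strand setting and the handling of multi-mapping reads are not given in the sources used here. Symbols and gene positions come from GENCODE M21, which matched 53274 of 53379 identifiers, and the other 105 held 0.00839% of counts.

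The low-count filter was filterByExpr in edgeR 4.0.16, grouped by age, with a minimum count of 10 and a minimum total count of 15, and 37312 genes were set aside, 23609 of them without a count. Library sizes were scaled by TMM, with factors from 0.815 to 0.988 in the libraries of 3 and 13 months and of 1.64, 1.34 and 0.979 at 21 months. All 9 libraries entered a model of age in R 4.3.3, tested with the quasi-likelihood F test (6 residual and 3.63 prior degrees of freedom, biological coefficient of variation 22.4%). Benjamini-Hochberg adjustment covered all 16067 genes at a threshold of 0.05, and every adjusted p in the text is from this edgeR test unless another tool is named. The SE of a log2 value is its size over the square root of its F statistic. CPM is scaled by TMM throughout, and 3 counts are worth 0.107 to 0.213 CPM. Sums of CPM cover all genes of a list in the table, tested or not, and shares of counts are relative to the library total.

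Named peaks and troughs are the 10 of smallest p in each direction whose 13-month libraries lie outside the other 6, leaving out predicted, Rik and clone names and genes whose average log2 CPM was under 1. Members of 42 gene lists (27 of pathways, 15 of cell types), up to 4 of each by p, and a few genes fixed by name could be named too. Pck1, Nek2, Iqgap3, Ckap2, Gm16263, Plk1, Pcna, Mcm4, Pbk, Tfap2e, Dpt, Dcn, Col1a1 and Col7a1 were chosen after their values were seen. The genes, lists, contrast and rules were chosen with earlier results of these data known. Alternatives were DESeq2 1.42.0, limma-voom (limma 3.58.1), other scalings, filters and weights, a replicate block, 21 months as replicate 3 alone and leaving out each library. The steps were tested on simulated data. Splicing and isoforms were not analysed here.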

Additional observations from a re-analysis of the deposited data

How the results depend on the processing

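DESeq2 called 22 genes higher and 64 lower in the midlife contrast, and 3 turning genes, where edgeR called 0. Without a low-count filter edgeR called 6 higher and 9 lower of 29770 genes, and with 21 months as replicate 3 alone it called 1 higher and 0 lower. Leaving out 1 library at a time gave 0 to 30 higher, 0 to 31 lower and 0 turning genes. The upper ends came without 21-month replicate 3, which leaves only the 21-month libraries with prostate or fat transcripts, while 2 higher genes were called without 13-month replicate 3 and 1 without 21-month replicate 1. The causes were not tested. limma-voom, DESeq2 size factors, library totals, TMM without the 50 most abundant genes, at least 10 counts in all 9 libraries, a robust spread and weights for a straight line between 3 and 21 months gave 0 calls, with smallest adjusted p-values from 0.0594 to 0.172. Library totals alone moved the median contrast of all genes from 0.00 to −0.24. With the replicate block 0 genes were called, with a smallest adjusted p of 0.0946. Deviations of libraries with the same number correlated across genes from −0.17 to 0.21. Libraries with different numbers were not compared, so this range cannot decide whether the numbers pair samples. The main fit did not pair them. Mcm4 was −0.15 under library totals alone and from −0.022 to 0.18 with 1 library left out, against 0.10. Low counts limit Ccnb1, Plk1 and similar genes at 13 months.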

Other observations

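Among genes that the naming rule does not reach, Tfap2e, a transcription factor gene of the AP-2 family, had 0.346, 0.213 and 0.138 CPM at 3 months, 2.25, 2.30 and 3.49 CPM at 13 months and 0.594, 1.73 and 2.45 CPM at 21 months. It was among the 7 genes that rose from 3 to 13 months (edgeR adjusted p = 0.0416), and its midlife contrast was 2.12 ± 0.42 (adjusted p = 0.213). The 13- and 21-month libraries overlapped through 21-month replicate 3. Pbk, a kinase gene of dividing cells, had 3.05, 1.70 and 2.0 CPM, then 0.177, 0.209 and 0.0895 CPM, then 0.520, 0.288 and 0.590 CPM, with a contrast of −2.68 ± 0.43 (adjusted p = 0.18).

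Pck1, which encodes an enzyme of gluconeogenesis and glycerol synthesis that is abundant in fat and liver, had 0 counts in all 3 libraries of 13 months. The 3-month libraries held 0, 0.639 and 0.069 CPM. Its level was 255.1 CPM in 21-month replicate 2, 7.95 CPM in replicate 1 and 0 in replicate 3. Replicates 1 and 2 are the libraries with fat cell markers. In edgeR the adjusted p of Pck1 was 0.856. DESeq2 gave it a contrast of −23.4 (DESeq2 adjusted p = 1.76e-07), although its 13-month libraries overlapped those of both other ages. The fat cell markers Fabp4 and Car3 had contrasts of −4.06 ± 1.57 and −6.68 ± 2.38, and neither passed (adjusted p = 0.695 and 0.637).

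Among fibroblast markers, Dcn stood at 117.0, 158.7 and 128.1 CPM, then 88.8, 131.4 and 145.0 CPM, then 196.5, 356.0 and 185.3 CPM, and Dpt at 27.9, 29.9 and 21.0 CPM, then 14.4, 11.7 and 19 CPM, then 23.1, 66.8 and 14.9 CPM. Dcn overlapped between 3 and 13 months and was higher in all 21-month libraries, while Dpt was lower at 13 than at 3 months in all libraries and overlapped with 21 months through replicate 3. Neither passed the midlife contrast (adjusted p = 0.716 for both). Col1a1 had a contrast of −0.55 ± 0.35.

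Cdkn2a, a cell cycle inhibitor, had too few reads to be tested. It had 4, 2 and 1 counts at 3 months, 35, 4 and 0 counts at 13 months and 4, 4 and 14 counts at 21 months, so its 13-month libraries held both the highest and the lowest value.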
